A study of Mus musculus with 37 samples.

Results

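The cluster of miR-144 and miR-451a is a pair of neighbouring microRNA genes whose products, mmu-miR-144-5p, mmu-miR-144-3p and mmu-miR-451a, were followed in mouse blood over 4 ages. The 3 members were taken by name from the 1915 mature microRNAs of the count table, and each has 1 row in it. The series is small RNA sequencing of total blood from C57BL/6 mice that were trained in the water maze (the learning group), in 4 age groups. These are 12 months (9 libraries), 13.5 months (12 libraries), 15 months (5 libraries) and 16.5 months (11 libraries). Per the study's methods the mice were male, wild type, of the substrain written there as C57B/6J, and single housed. Blood was drawn from the retro-orbital sinus, at 12 months before any behavioural test and at the later ages on the day after the probe tests, so age and training cannot be told apart. The study describes a longitudinal design, in which the mice were bled repeatedly over these ages. The labels do not say which libraries come from 1 mouse. The p-values therefore treat the libraries as separate samples, leave any such pairing out and measure the spread between libraries.

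MicroRNAs are short RNAs that guide Argonaute proteins to messenger RNAs, mainly through the seed near their 5′ end. The locus is transcribed in developing red blood cells under the erythroid transcription factor GATA1, and its products are carried into the mature red cell. The miR-144 precursor is cut by Dicer into an RNA from each arm, whereas the short miR-451 precursor bypasses Dicer and is cut by Argonaute 2. Known targets include Nrf2, a regulator of the response to oxidative stress, for miR-144 and 14-3-3ζ for miR-451.

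The RefSeq sequences of the members are shown because the arms of 1 hairpin are compared below. The study itself counted the reads against miRBase precursors. All 3 members matched the RefSeq table, which is on GRCm38.p6. Capitals mark the seed, bases 2 to 8, and sequences are written 5′ to 3′.
mmu-miR-144-5p: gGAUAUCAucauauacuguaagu
mmu-miR-144-3p: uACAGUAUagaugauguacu
mmu-miR-451a: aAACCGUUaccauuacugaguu

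The 3 seeds differ, and none of them was shared over bases 2 to 8 by another mature mouse microRNA in that table. Over bases 2 to 7, miR-144-3p matched miR-101a-3p, which had between 0 and 22 reads per library. In the hairpins below, capitals mark the mature RNAs.
Mir144: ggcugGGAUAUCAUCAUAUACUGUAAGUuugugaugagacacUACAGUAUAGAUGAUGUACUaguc
Mir451a: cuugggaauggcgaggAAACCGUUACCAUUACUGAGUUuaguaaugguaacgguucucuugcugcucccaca

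Mir144 lies at chr11:78073005-78073070 and Mir451a at chr11:78073170-78073241, both on the plus strand, with 99 bases between the hairpins. The mature RNAs lie at chr11:78073010-78073032 for miR-144-5p, at chr11:78073047-78073066 for miR-144-3p and at chr11:78073186-78073207 for miR-451a. The locus is intergenic, 12570 bases beyond the end of Flot2 and 134 bases from Eral1, which is on the minus strand. The annotation places no gene over the locus other than the microRNA genes Mir144, Mir451a and Mir451b. In the fold predicted from sequence, miR-144-5p had 20 of its 23 bases paired and miR-144-3p 19 of 20, on opposite sides of the stem. The 22 bases of miR-451a instead ran to the end of the 4-base loop, with 17 paired and 4 in the loop. Mir451b is annotated on the opposite strand of the Mir451a hairpin, and its product miR-451b had 0 reads in all 37 libraries.

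Library depth set what could be tested. The total count per library, over the first row of each microRNA, was between 2619533 and 20268095. The share of the red-cell microRNA miR-486a-5p ran from 79.6% to 94.3% when miR-486b-5p, whose row held the same counts in 37 of 37 libraries, was left out. Between 140292 and 1131713 counts per library fell outside these 2 rows. Levels are counts per 1000000 (CPM) of the library size after TMM scaling, edgeR's trimmed-mean factor.

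miR-451a was an abundant blood microRNA and the arms of miR-144 were not. By mean CPM, miR-451a ranked 6 among the 1915 microRNAs, miR-144-5p ranked 87 and miR-144-3p ranked 182. A library held between 822 and 215630 reads of miR-451a, between 4 and 420 of miR-144-5p and between 0 and 73 of miR-144-3p. miR-451a exceeded 100 reads in 37 of 37 libraries and miR-144-5p in 20, so both passed a filter that asks for over 100 reads in 50% of libraries or more. miR-144-3p exceeded 100 reads in 0 libraries and was tested in a second fit of 323 microRNAs that had over 1 read in 50% of libraries or more, and miR-144-3p had this in 33. All 3 members were therefore tested, but the strand from the 3′ arm rests on 520 reads over 37 libraries.

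At 12 months, miR-451a ran from 2727 to 19052 CPM with a median of 5918, and its mean was 7533 ± 5169 CPM (SD, n = 9). At 13.5 months it ran from 624 to 5760 CPM with a median of 2093, and its mean was 2770 ± 1922 (SD, n = 12). The 5 libraries at 15 months held 1380, 5774, 2218, 7291 and 8930 CPM, a mean of 5119 ± 3243 (SD). At 16.5 months the values ran from 1954 to 8556 CPM around a median of 4283, with a mean of 4542 ± 1948 (SD, n = 11). All 12 libraries at 13.5 months lay below the median of the 12-month libraries, and 8 of them lay below the lowest 12-month library, but the groups overlapped. Outside the miR-486 rows, miR-451a made up 12.9% ± 7.78, 4.97% ± 3.77, 9.48% ± 6.06 and 7.71% ± 3.30 of the counts (SD), from the youngest age to the oldest.

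miR-144-5p was near 20 CPM at every age but 13.5 months. Its values at 12 months ran from 7.93 to 27.4 CPM with a median of 20.0, and the mean was 18.3 ± 6.28 (SD, n = 9). At 13.5 months they ran from 1.39 to 13.4 CPM with a median of 4.40 and a mean of 5.71 ± 3.77 (SD, n = 12). The 15-month libraries held 14.6, 12.3, 34.9, 19.8 and 18.5 CPM, a mean of 20.0 ± 8.83 (SD). At 16.5 months the range was 8.43 to 38.9 CPM, the median 17.6 and the mean 19.2 ± 8.26 (SD, n = 11). Of the 12 libraries at 13.5 months, 8 lay below every 12-month library. Conversely, 4 of 5 libraries at 15 months and 9 of 11 at 16.5 months lay above every 13.5-month library.

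miR-144-3p stayed within a few CPM. It ran from 0.937 to 6.45 CPM at 12 months, with a median of 2.18 and a mean of 2.91 ± 1.71 (SD, n = 9). At 13.5 months it ran from 0 to 3.16 CPM, with a median of 0.674 and a mean of 0.891 ± 0.839 (SD, n = 12). The library at 0 was replicate 3, in which a count of 0 allows up to 0.407 CPM, counting error only. The 15-month libraries held 0.416, 0.531, 2.25, 2.22 and 0.887 CPM, a mean of 1.26 ± 0.906 (SD). At 16.5 months the range was 0.351 to 5.86 CPM, the median 1.12 and the mean 1.67 ± 1.52 (SD, n = 11). As for the other members, 8 of 12 libraries at 13.5 months lay below every 12-month library, and 11 lay below the 12-month median. In whole blood, fewer red cells and less of the RNA per cell cannot be told apart for any member.

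**Figure D1:**
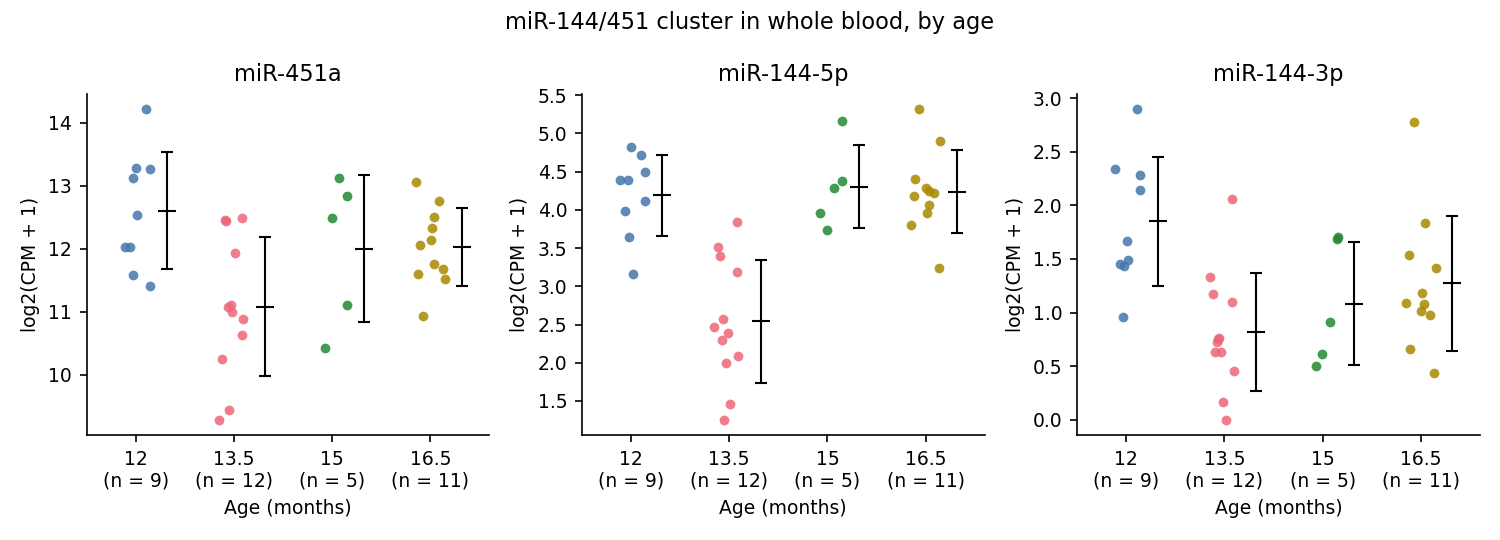
Level of each member in each library as log2(CPM + 1), by age in months. Points are the 37 libraries, and the black bars give the mean and SD of each age. For every member the 13.5-month points lie lowest on average, and the groups overlap.

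All 3 members differed over the 4 ages by edgeR's quasi-likelihood F-test with Benjamini-Hochberg adjustment over all microRNAs tested. Adjusted p was 2.15e-05 for miR-144-5p and 0.0145 for miR-451a, in a fit where 58.6% of 87 microRNAs were called at 0.05. For miR-144-3p it was 0.0348, in the fit of 323 microRNAs where 32.2% were called. miR-451a missed the threshold in that larger fit, with an adjusted p of 0.0548, and also with scaling by the total count alone (0.0722). Leaving out 12 months replicate 7, 13.5 months replicates 1, 4 or 6, 15 months replicate 4 or 16.5 months replicate 5 likewise put miR-451a past 0.05, with adjusted p between 0.0554 and 0.0860. The call of miR-144-3p rested on single libraries too, since it was lost in 11 of the 37 fits that each left 1 library out, with adjusted p from 0.0505 to 0.148. These libraries were 12 months replicates 3, 4 and 7, 13.5 months replicates 3, 5, 6, 7, 9, 10 and 11, and 16.5 months replicate 1.

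Between 12 and 13.5 months all 3 members fell, by 1.44 to 1.65 on the log2 scale. miR-144-5p fell by 1.65 on the log2 scale (SE 0.302, adjusted p = 5.82e-05, edgeR). miR-451a fell by 1.44 (SE 0.387, adjusted p = 0.00295) and miR-144-3p fell by 1.56 (SE 0.437, adjusted p = 0.00955). Lower calls made up 23.0% of the 87 microRNAs in this contrast and 11.8% of the 323. Among pairs of a 13.5-month and a 12-month library, the later was lower in 103 of 108 for miR-144-5p, in 94 of 108 for miR-451a and in 100 of 108 for miR-144-3p. The fall of miR-144-3p missed the threshold without 12 months replicate 7, where it was 1.26 on the log2 scale in size and its adjusted p was 0.0527. With 2 RUVs factors, which model unwanted variation, the change of miR-451a was -0.79, with an adjusted p of 3.16e-08. The factors were drawn from the spread within ages of the tested microRNAs, miR-451a included, so they can take up part of its own spread. They were scored on values that keep the age differences, so they can also take up part of a change between ages.

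After 13.5 months miR-144-5p passed the test of a rise. Whether the other members differed from it is tested by their ratios below. miR-144-5p rose by 1.79 on the log2 scale to 15 months (SE 0.344, adjusted p = 1.42e-04) and by 1.72 to 16.5 months (SE 0.290, adjusted p = 7.89e-06). The rise to 15 months missed the threshold with scaling by the total count alone (1.15, adjusted p = 0.0559). The change of miR-451a was 0.89 to 15 months (SE 0.452, adjusted p = 0.125) and 0.71 to 16.5 months (SE 0.368, adjusted p = 0.111), neither past the threshold. Both passed with 1 RUVs factor (0.47 and 0.68, adjusted p = 7.93e-04 and 4.67e-08) and with 2 (0.38 and 0.59, adjusted p = 0.00749 and 3.92e-06). As these factors were drawn in part from miR-451a itself, their p-values are not independent of its spread. The value to 15 months was 0.32 with scaling by the total count alone, and with 1 library left out it ran from 0.31, without 15 months replicate 5, to 1.03, without 13.5 months replicate 10. For miR-144-3p the values were 0.54 (SE 0.532, adjusted p = 0.612) and 0.76 (SE 0.429, adjusted p = 0.206). Without 13.5 months replicate 12 the latter was 1.22, with an adjusted p of 0.0247. Higher calls made up 16.1% of the 87 and 3.41% of the 323 microRNAs at 15 against 13.5 months, and 21.8% and 11.8% at 16.5 against 13.5 months.

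Against 12 months, no member passed the test at 15 or 16.5 months in the fit without RUVs factors. With 1 or 2 such factors, drawn in part from miR-451a itself, miR-451a passed as lower at 15 months (-0.38 and -0.41, adjusted p = 0.0250 and 0.00882). The log2 change of miR-144-5p was 0.13 (SE 0.372) at 15 months and 0.07 (SE 0.301) at 16.5 months. That of miR-451a was -0.56 (SE 0.501) and -0.73 (SE 0.394), and that of miR-144-3p was -1.02 (SE 0.549) and -0.80 (SE 0.427). The adjusted p-values of these 6 contrasts ran from 0.190 for miR-451a to 0.912 for miR-144-5p, both at 16.5 months. At 15 months 0% of the 87 microRNAs were called by edgeR, with 16 at an unadjusted p under 0.05, and 0.310% of the 323 were called. At 16.5 months 19.5% and 14.2% were called. Between 15 and 16.5 months, where 3.45% of the 87 and 0.310% of the 323 were called, the changes were -0.17 for miR-451a (SE 0.471), -0.06 for miR-144-5p (SE 0.360) and 0.22 for miR-144-3p (SE 0.534), none past the threshold.

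**Figure D2:**
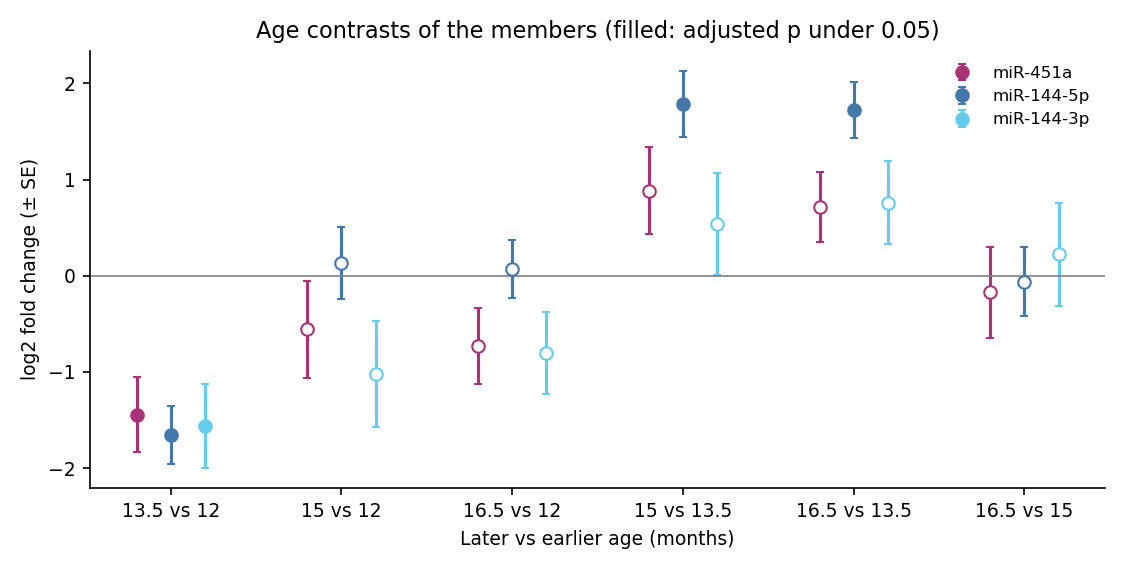
Log2 fold change with its standard error for each member in the 6 age contrasts, later against earlier age in months. Filled points passed the adjusted threshold. All 3 members are filled in the first contrast, and miR-144-5p alone is filled in the contrasts of 15 and 16.5 against 13.5 months.

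The ratio of 2 members within a library does not depend on the library's scaling, and it tests directly whether they moved apart. The read added to each count does make it depend on depth where reads are few, as for the arms of miR-144. The log2 ratio of miR-451a to miR-144-5p (counts + 1) was 8.49 ± 0.760, 8.80 ± 1.25, 7.76 ± 1.39 and 7.86 ± 1.02 (SD) in order of age. Age accounted for 14.7% of its variance, and the ratio did not differ detectably over the ages (permutation test, 100000 resamples, adjusted p over 3 ratios = 0.229). The largest pairwise difference in size was that between 15 and 13.5 months, -1.04 (SE 0.720, exact permutation test, adjusted p over 18 comparisons = 0.393). As a difference in medians it was -0.29, and with 1 library left out it ran from -1.33, without 15 months replicate 5, to -0.60, without 15 months replicate 3.

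For miR-451a to miR-144-3p the log2 ratio was 11.2 ± 1.05, 11.4 ± 1.86, 11.7 ± 1.46 and 11.5 ± 1.38 at the 4 ages in order (SD). Age accounted for 1.19% of the variance (permutation test, adjusted p = 0.939). The largest difference in means was 0.50 (SE 0.743, 15 against 12 months), which ran from 0.14 to 0.97 with 1 library left out, the lowest without 15 months replicate 2 and the highest without 15 months replicate 3. The largest difference in medians was 0.76, at 16.5 against 12 months. In the 13.5-month libraries this ratio reached 14.8 in the library with 0 reads of miR-144-3p, where the added read sets it. In the other 11 it ran from 8.10 to 13.0, and 8 of these held under 10 reads of miR-144-3p, so counting error is part of the width.

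The arms of miR-144 were unequal in every library, with the 5′ arm ahead. Summed over the 37 libraries there were 4891 reads of miR-144-5p and 520 of miR-144-3p, so the 3′ arm made up 9.61% of the reads of both arms (95% Wilson interval 8.85 to 10.4, counting error only). By age the 3′ share of the summed reads was 13.4% (interval 11.7 to 15.2), 12.8% (10.6 to 15.5), 7.28% (5.85 to 9.03) and 7.14% (6.14 to 8.30), from 12 to 16.5 months. Equivalently, there were 6.48, 6.79, 12.7 and 13.0 reads of the 5′ arm for each read of the 3′ arm. The intervals at 12 and 13.5 months lay above those at 15 and 16.5 months, but they cover counting error only.

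Between libraries the share of the 3′ arm varied far more. Its mean was 13.7% ± 5.37 at 12 months (range 4.48 to 20.3, SD, n = 9) and 13.4% ± 9.27 at 13.5 months (0 to 33.3, SD, n = 12). It was 2.78%, 4.13%, 6.06%, 10.1% and 4.57% in the 15-month libraries, a mean of 5.52% ± 2.80 (SD), and 7.42% ± 3.65 at 16.5 months (2.78 to 14.1, SD, n = 11). The highest share, 33.3%, came from a 13.5-month library with 6 reads of both arms and has a Wilson interval of 9.68 to 70.0. The library with 0 reads of the 3′ arm had 13 of the 5′ arm, which allows a share of up to 22.8% by the Wilson interval. The 4 ages overlapped.

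As a log2 ratio of counts + 1, miR-144-3p to miR-144-5p was -2.70 ± 0.773, -2.64 ± 1.01, -3.93 ± 0.477 and -3.62 ± 0.701 (SD) in order of age. Age accounted for 32.2% of its variance, and the 4 ages differed (permutation test, 100000 resamples, adjusted p over 3 ratios = 0.0136). No pair of ages passed after adjustment over 18 comparisons. The differences were -1.23 (SE 0.335) at 15 against 12 months, -0.92 (SE 0.333) at 16.5 against 12 months, -1.29 (SE 0.361) at 15 against 13.5 months and -0.97 (SE 0.360) at 16.5 against 13.5 months. Their unadjusted p by permutation ran from 0.0110 to 0.0160, and the adjusted p of each was 0.0720. Between 12 and 13.5 months, the ages between which both arms fell, the ratio moved by 0.06 (SE 0.389). That difference had no settled direction, at -0.31 by medians, -0.09 with 0.5 reads added, 0.39 in libraries with at least 100 reads of both arms and 0.58 with 10 reads added, none past the threshold (permutation, adjusted p from 0.236 to 0.899).

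The call on the arm ratio changed with the libraries and the number of reads added. With at least 100 reads of both arms together, only 6, 3, 4 and 8 libraries remained at the 4 ages, and the test over the ages gave an adjusted p of 0.0736 by permutation. In all 37 libraries that test gave 0.0394 with 0.5 reads added and 0.00123 with 10 (adjusted p, permutation). Without 12 months replicate 8, in which the 3′ arm was 4.48% of the reads, the ratios at 15 and 16.5 months against 12 months passed with an adjusted p of 0.0235 each by exact permutation. With 10 reads added to each count in place of 1, the ratios at 15 and 16.5 against 13.5 months were -1.30 and -1.24 and passed (adjusted p = 0.0189 and 0.00774, permutation). Added reads pull the ratio toward equal arms most where reads are few, so this setting can itself build part of that gap. The 13.5-month libraries had the fewest, with medians of 46.5 reads of the 5′ arm and 5 of the 3′ arm.

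**Figure D3:**
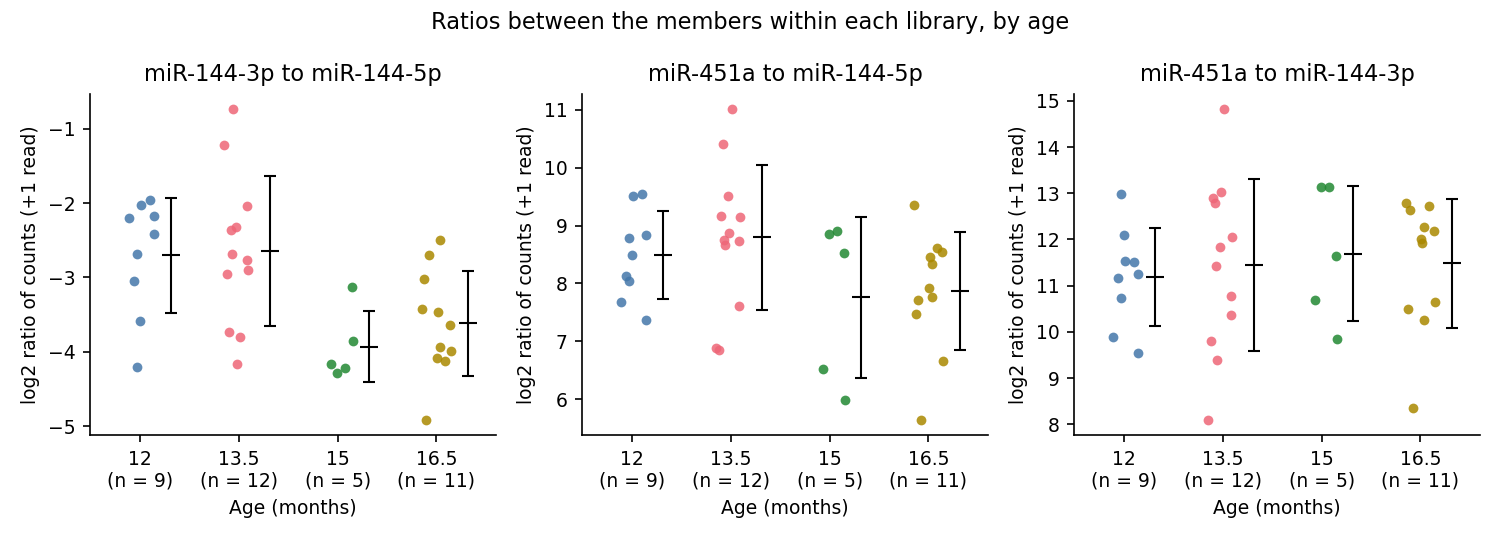
Log2 ratio of counts (with 1 read added) between members within each library, by age in months. Points are libraries, and black bars give mean and SD. In the first panel the 15- and 16.5-month libraries lie lower on average (-3.93 and -3.62) than those at 12 and 13.5 months (-2.70 and -2.64). The ages overlap in every panel.

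Across libraries the 2 arms of miR-144 were correlated with each other, also after the age means were subtracted. On log2(CPM + 1) values, miR-144-5p and miR-144-3p had r = 0.644 and rho = 0.616 over the 37 libraries (permutation test, adjusted p = 6e-05 and 0.00066). With the mean of each age subtracted, r was 0.631 and rho 0.562 (permutation within ages, adjusted p = 9e-05 and 0.00171), and r was 0.615 without the 2 libraries farthest from the median. Within single ages r was 0.443 at 12 months, 0.673 at 13.5 months and 0.711 at 16.5 months, none past the threshold after adjustment over 9 values (permutation, adjusted p = 0.354, 0.0912 and 0.0912). The value at 16.5 months rested on the 2 farthest libraries, without which it was -0.04.

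miR-451a and miR-144-5p had r = 0.475 and rho = 0.441 over all libraries (permutation, adjusted p = 0.00570 and 0.0134). Without the 2 farthest libraries r was 0.318. Once age means were subtracted, r was 0.159 and rho 0.132 (permutation, adjusted p = 0.474 and 0.562), so the pooled value did not hold within ages. Within ages r was 0.584 at 12 months, 0.305 at 13.5 months and -0.494 at 16.5 months (permutation, adjusted p = 0.218, 0.425 and 0.218). Without the 2 farthest libraries of each age these were 0.568, 0.05 and 0.0007, so the negative value rested on 2 libraries. At the same ages rho was 0.767, 0.203 and -0.427 (permutation, adjusted p = 0.179, 0.529 and 0.381). No value was computed for the 5 libraries at 15 months, for any pair of members.

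miR-451a and miR-144-3p had r = 0.267 and rho = 0.224 over all libraries (permutation, adjusted p = 0.163 and 0.276) and r = -0.04 and rho = -0.09 with age means subtracted (adjusted p = 0.796 and 0.611). Within ages r was 0.325 at 12 months, -0.07 at 13.5 months and -0.587 at 16.5 months (adjusted p = 0.443, 0.839 and 0.168, permutation). Without the 2 farthest libraries of each age these were 0.02, 0.13 and -0.28.

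These values depend on what the counts are divided by, and all members of a library share that denominator. Dividing by the total count alone, the age-centred r of miR-451a and miR-144-5p was 0.607 (permutation, adjusted p = 0.000405). Dividing by the counts outside miR-486 it was 0.335 (adjusted p = 0.115). For the arms of miR-144 the same denominators gave 0.712 and 0.603, both past the threshold (permutation, adjusted p = 2e-05 and 0.00098). For miR-451a and miR-144-3p they gave 0.347 and -0.02, neither past it (adjusted p = 0.0514 and 0.913).

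Whether these correlations differ between the pairs of members was not tested.

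**Figure D4:**
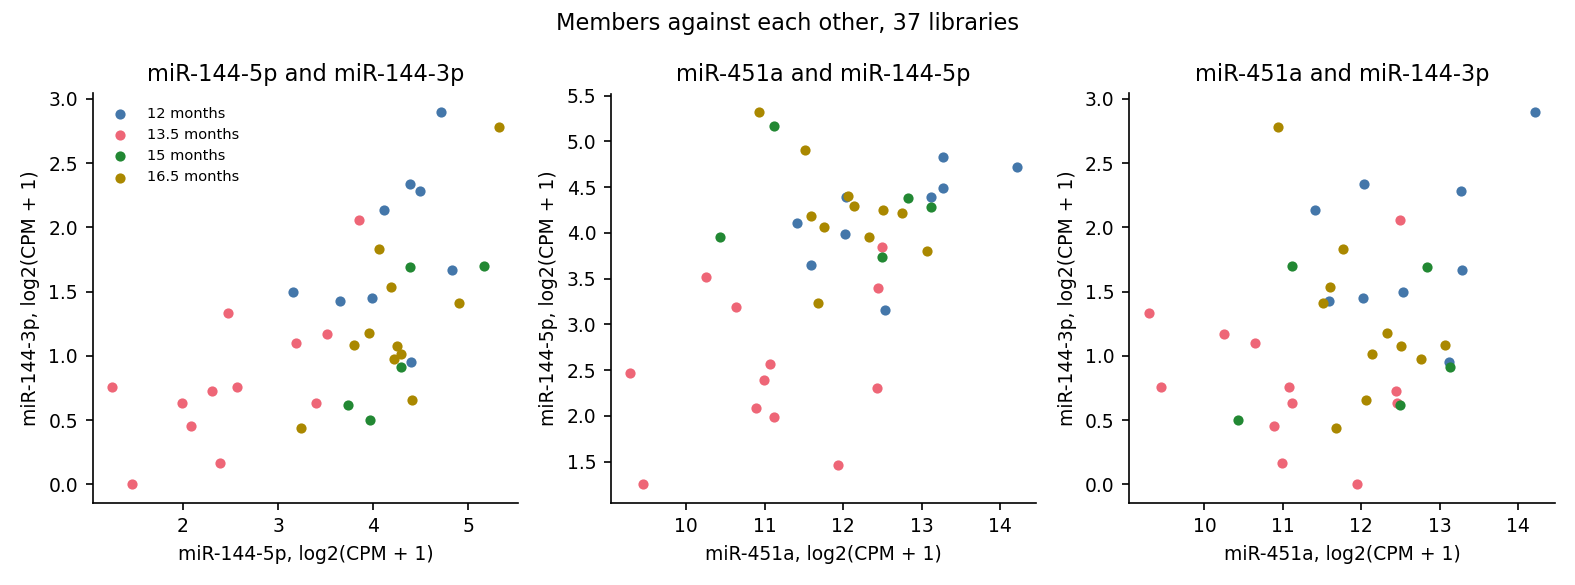
Each pair of members plotted against each other as log2(CPM + 1), 1 point per library and coloured by age. The arms of miR-144 line up (r = 0.644 over 37 libraries), and for miR-451a the values are 0.475 with miR-144-5p and 0.267 with miR-144-3p.

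Another measure of likeness is the standard deviation, over the 37 libraries, of the log2 ratio of 2 microRNAs, which needs no scaling and is small for pairs in step. Each member was ranked against 87 others, the microRNAs past the filter of 100 reads and the other members. For miR-144-3p the nearest was miR-144-5p (SD 0.946), ahead of miR-19b-3p (1.05) and miR-30e-5p (1.08). For miR-144-5p the nearest were miR-30a-5p (0.774), miR-30e-5p (0.779) and miR-30b-5p (0.799), and miR-144-3p ranked 10. The nearest to miR-451a were miR-181c-5p (0.526), miR-30b-5p (0.539) and miR-223-3p (0.628). In that ranking of miR-451a, miR-144-5p stood at 44 of 87 (1.14, equal to the median of all) and miR-144-3p at 66 (1.45). The few reads of miR-144-3p add counting error to each of its values.

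The nearest microRNAs that are not members were lower at 13.5 than at 12 months, and not all of them passed as higher afterwards. From 12 to 13.5 months, miR-30b-5p fell by 1.78 on the log2 scale (SE 0.234, adjusted p = 4.09e-07, edgeR), miR-19b-3p fell by 1.08 (SE 0.283) and miR-223-3p, a microRNA of myeloid cells, fell by 1.01 (SE 0.241). miR-181c-5p fell by 0.88 (SE 0.308, adjusted p = 0.0186), miR-30e-5p by 0.82 (SE 0.180) and miR-30a-5p by 0.71 (SE 0.142). At 15 and 16.5 against 13.5 months miR-30a-5p, miR-30b-5p, miR-30e-5p and miR-19b-3p passed as higher. miR-223-3p passed at 16.5 months only (0.62, adjusted p = 0.0237), with 0.41 at 15 months (adjusted p = 0.283). miR-181c-5p passed at neither (0.37 and 0.11, adjusted p = 0.439 and 0.792). These microRNAs were named for likeness over the same libraries, which fixes much of this.

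The members were also variable within an age. The biological coefficient of variation, edgeR's spread between libraries of an age beyond counting error, was 0.599 for miR-451a and 0.457 for miR-144-5p, against a common value of 0.405. Only 5 of the 87 microRNAs were more variable than miR-451a, and 18 were more variable than miR-144-5p. For miR-144-3p it was 0.620, rank 31 of 323.

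Of the other red cell microRNAs that were tested, none passed the test as lower at 13.5 months. A list of 12 held miR-486a-5p and miR-486b-5p, miR-16-5p, miR-15a-5p, miR-25-3p, miR-92a-3p, miR-363-3p, miR-185-5p, miR-182-5p, miR-183-5p, miR-96-5p and miR-451b, and 7 of them were tested in the fit of 87. Between 12 and 13.5 months 3 rose and 0 fell, where higher calls made up 20.7% and lower calls 23.0% of the 87, and their median log2 change was 0.31 beside 0.11 over all 87. The 7 include miR-486a-5p and miR-486b-5p, which hold the same counts, and the median of 0.31 is the value of these 2. With 7 tested, 0 lower calls cannot be told from the share of 23.0%. miR-92a-3p rose by 1.64 (SE 0.383, adjusted p = 8.20e-04, edgeR), miR-182-5p by 0.56 (SE 0.203, adjusted p = 0.0249) and miR-25-3p by 0.49 (SE 0.106, adjusted p = 3.79e-04). The most abundant, miR-486a-5p, changed by 0.31 (SE 0.268, adjusted p = 0.349), and miR-16-5p by -0.29 (SE 0.164, adjusted p = 0.151). From 13.5 to 16.5 months 0 of the 7 rose and 2 fell, miR-92a-3p by 1.21 and miR-15a-5p by 0.96 on the log2 scale, beside lower calls in 27.6% of the 87. At 15 against 12 months 0 of the 7 were called. Of the list's members, miR-451b was at 0 in 37 libraries and miR-96-5p in 28.

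The log2 ratio of miR-451a to miR-16-5p, another microRNA of red cells, was 0.09 ± 0.725, -1.10 ± 0.794, 0.16 ± 0.873 and 0.06 ± 0.356 (SD) in order of age. Against miR-486a-5p it was -5.96 ± 1.34, -7.71 ± 1.66, -7.27 ± 1.58 and -6.89 ± 1.04 at the same ages. The log2 ratio to miR-23a-3p, often used as a reference because red cells hold little of it, was 7.78 ± 0.797, 6.83 ± 0.863, 7.42 ± 0.818 and 7.12 ± 0.449. In each of these ratios miR-451a had its lowest mean at 13.5 months, and these are values with no test. The references were not all steady. miR-23a-3p was itself lower at 13.5 than at 12 months (-0.57, adjusted p = 0.00844, edgeR). Against 12 months, miR-16-5p changed by -0.68 at 15 months (adjusted p = 0.0513) and by -0.54 at 16.5 months (adjusted p = 0.0146). There miR-451a changed by -0.56 and -0.73, neither past the threshold without RUVs factors. Its ratio to miR-16-5p therefore does not follow miR-451a alone. miR-486a-5p did not pass over the ages (adjusted p = 0.333).

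Across libraries miR-451a was correlated with miR-16-5p and inversely with miR-486a-5p. On the log2(CPM + 1) scale it had r = 0.642 and rho = 0.609 with miR-16-5p over the 37 libraries (permutation test, adjusted p over 12 relations = 0.000600 and 0.00156). With age means subtracted these were 0.782 and 0.840 (permutation within ages, adjusted p = 6e-05 and 0.00012), and r was 0.756 without the 2 farthest libraries. With miR-486a-5p it had r = -0.589 and rho = -0.520 (permutation, adjusted p = 0.00132 and 0.00654), and -0.707 and -0.668 with age means subtracted (permutation, adjusted p = 6e-05 and 0.00036). Without the 2 farthest libraries the age-centred r was -0.636. For the arms of miR-144 the same relations had r between -0.06 and 0.14, or between -0.16 and 0.24 with age means subtracted, none past the threshold (permutation, adjusted p from 0.640 to 0.852). miR-451a was also related to the log2 count outside the miR-486 rows. There r was 0.336 (permutation, adjusted p = 0.169). With age means subtracted r was 0.477 and rho 0.418 (permutation, adjusted p = 0.0182 and 0.0528). The values of a library share 1 denominator, and most of the counts behind it are the identical rows of miR-486a-5p and miR-486b-5p.

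**Figure D5:**
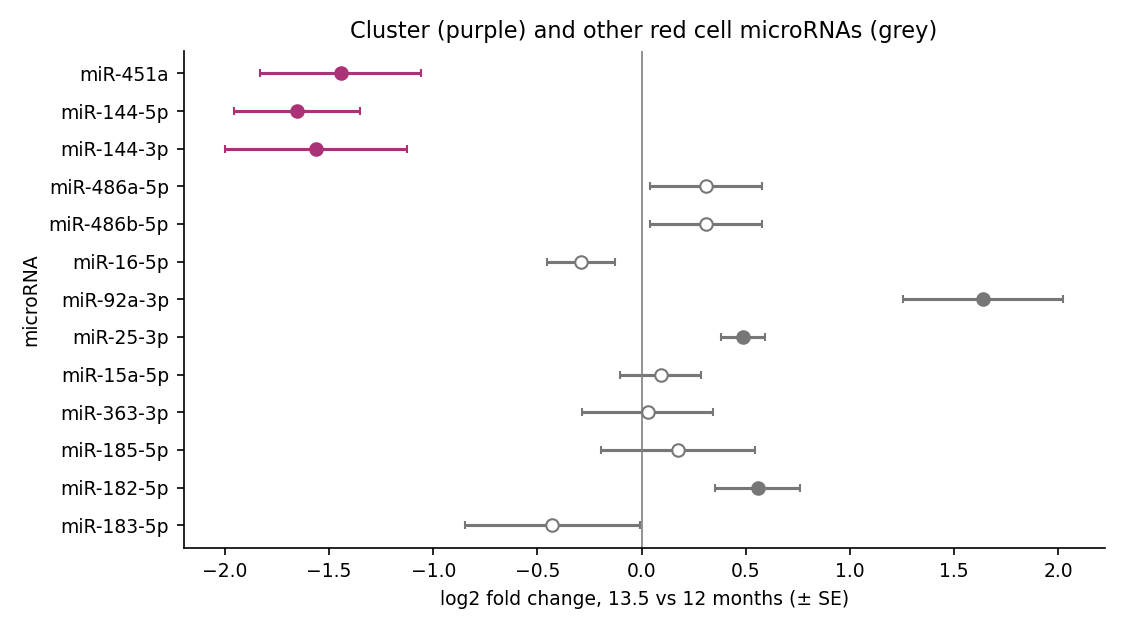
Log2 fold change at 13.5 against 12 months with its standard error for the 3 members (purple) and the 10 other red cell microRNAs that could be tested (grey). Filled points passed the adjusted threshold. The members lie between -1.65 and -1.44, and miR-92a-3p, miR-25-3p and miR-182-5p are filled above 0.

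Markers of other blood components were counted beside the cluster. Of 8 white cell microRNAs, 6 were tested in the fit of 87, and 4 of them differed over the 4 ages, where 58.6% of all 87 did. At 13.5 against 12 months 2 rose and 2 fell (20.7% and 23.0% of the 87), and at 16.5 against 13.5 months 3 rose and 1 fell (21.8% and 27.6%). Their summed level ran from 2611 to 3716, 1547 to 3561, 2328 to 3551 and 2709 to 4887 CPM in order of age. Of 5 platelet and vessel microRNAs, 0 passed the filter of 100 reads and 3 the lower one, with 0 called over the 4 ages or at 13.5 against 12 months. Of the 323, 32.2% were called over the ages and 11.8% as lower at 13.5 against 12 months. At 16.5 against 12 months 1 of the 3 was called, as lower, where 14.2% of the 323 were called. With 3 tested, these counts cannot be told from those shares. Their sum ran from 3.27 to 54.8, 2.28 to 12.2, 4.16 to 12.2 and 2.71 to 6.17 CPM in the same order. The liver microRNA miR-122-5p was at 0 in 27 of 37 libraries and reached 0.370 CPM at most. The part of these components in the changes of the cluster was not tested.

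The study's own normalized values, which scale the counts by a factor for each library, are given beside these levels. Mean miR-451a was 55204, 21773, 38123 and 33553 on that scale in order of age. Mean miR-144-5p was 133, 44.8, 147 and 140.0, and mean miR-144-3p was 21.4, 7.03, 9.31 and 12.1, at the same ages. In them too, each member had its lowest mean at 13.5 months.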

How the data were processed

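Per the labels and the study's methods, the authors trimmed adapters with cutadapt, checked reads with FastQC 0.11.5 (the submitters' processing notes) and used miRDeep2, with default settings for alignment to mm10 and with 0 mismatches against miRBase precursors for counting. They deposited raw counts, with 2241 rows for 1915 mature microRNAs, and a normalized signal for 337, which is the first row scaled by a factor for each library. First rows were used, and 0 columns of per-sample values were left out.

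Counts were tested with edgeR 4.0.16 in R 4.3.3 (quasi-likelihood, TMM, all 37 libraries), adjusted by Benjamini-Hochberg, threshold 0.05. SE is the log2 change divided by the square root of F. Pairs of ages in a ratio were compared with two-sided permutation tests, by full enumeration (exact) if either group had under 10 libraries and by 100000 resamples if not. Folds came from ViennaRNA 2.7.2, positions from RefSeq, and neighbouring genes from GENCODE vM21, also GRCm38.

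DESeq2 1.42.0, limma 3.58.1 on the deposited signal (chosen after seeing the data), other scalings and filters, RUVs factors, a replicate block and single libraries left out were alternatives. The scripts were checked on simulated data. Of 167 same-age pairs of libraries 0 held identical counts. Named microRNAs are the members, miR-451b, the 3 nearest to each member and a red cell list. Members and lists were chosen with earlier results of these data known.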

Additional observations from a re-analysis of the deposited data

Results flagged for a closer look

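In 12 months replicate 7, miR-451a stood at 19052 CPM, apart from the other 8 libraries of its age, of which the next was at 9920 CPM. The gap took 0.559 of the group's whole range, above Dixon's 95% critical value of 0.493 for 9 libraries. For the members the rule was applied to CPM and not to log2 values, on which a high value stands less far apart. Of the 12 groups examined (the 3 members and their 3 ratios at 12 and 15 months), 1 was set apart in this way, and chance sets apart about 1 group in 20. The same library had the most miR-144-3p of its age, 6.45 CPM, and 25.3 CPM of miR-144-5p.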

How the results depend on the processing

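Over 45 results, 317 of 332 values under other settings and 1644 of 1665 with 1 library left out kept their direction, where they had passed, and their side of the threshold. The age test of miR-144-5p passed under all of them. That of miR-451a (adjusted p = 0.0145) gave 0.0722 with the total count alone and 0.0548 with the filter of more than 1 read, passed with 36 of 37 libraries as the TMM reference, and ran from 0.00689 to 0.0860 with 1 library left out. That of miR-144-3p ran from 0.00288 to 0.148, and its log2 change at 13.5 against 12 months from -2.03 to -1.26. The arm ratio over the ages gave 0.0736 with at least 100 reads of both arms, where fewer libraries remained. With 10 reads added, which shifts the 13.5-month libraries most, it was -1.30 and -1.24 at 15 and 16.5 against 13.5 months. With 1 library left out it ran from -1.43 to -1.14 at 15 against 12 months and from -1.11 to -0.79 at 16.5 against 12 months. The age-centred r of miR-451a and miR-144-5p was 0.607 with the total count. The RUVs factors were drawn in part from miR-451a itself. Against 13.5 months, miR-451a passed with 1 or 2 of them at 15 (0.47 and 0.38) and 16.5 months (0.68 and 0.59). It also passed with them at 15 against 12 months (-0.38 and -0.41). Except where stated, the cause of these differences was not tested. With the total count alone the median log2 change of all 87 microRNAs was -0.66 at 15 against 12 months, and 0.05 with TMM.

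Whether the replicate numbers mark mice is not known. Of 44 same-numbered pairs of libraries, 20 correlated above 0.1 (mean r = -0.03), and 1 of 36 libraries correlated best with its own number. These values gave no sign of pairing. They cannot exclude it, because single pairs ran from r = -0.863 to 0.825. With the number as a replicate block, the age tests gave adjusted p of 5.07e-05 for miR-144-5p, 0.00461 for miR-451a and 0.0166 for miR-144-3p. miR-451a then also passed at 15 and 16.5 against 13.5 months (1.52 and 0.98). Depth limits miR-144-3p most, with 0 to 73 reads per library.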
